A study of Mus musculus with 43 samples.

Results

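The angiopoietin and Tie receptor genes are the 5 genes Tek, Tie1, Ptprb, Angpt1 and Angpt2, taken by symbol from a table of 54532 genes. All 5 were among the 29120 genes that reached 0.5 CPM (read counts scaled to the size of the library) in 1 library or more. They were measured by RNA sequencing of brain endothelial cells (EC) sorted as CD45-, CD11b- and CD31+ from cortex or hippocampus of mice titled 2 months old. The long-inbred strains were 129S1/SvImJ (9 libraries), C57BL/6J (6), NOD/ShiLtJ (6), A/J (5) and DBA/2J (5), and the recently wild-derived strains were CAST/EiJ (6) and WSB/EiJ (6). The labels name no transgene and no treatment. Of the libraries 16 were female and 27 male, and 21 came from cortex and 22 from hippocampus. Every title also carried the tag high or low, which no source defines. The labels tie no library to an individual mouse or pool, so p-values measure only the spread between libraries, which may be in part technical, and fewer cells of a type and less RNA per cell cannot be told apart in such bulk samples.

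Tek encodes Tie2, the receptor tyrosine kinase that binds the angiopoietins, and Tie1 is its relative that has no high-affinity angiopoietin ligand and pairs with Tie2 at the cell surface. Angpt1, made mostly by pericytes and other perivascular cells, activates Tie2 and stabilises vessels. Angpt2 is made by EC themselves, is stored in Weibel-Palade bodies and can act as a context-dependent antagonist, and Ptprb encodes VE-PTP, the endothelial phosphatase that removes phosphate from Tie2 and associates with VE-cadherin. In the brain this axis is known for its part in vessel quiescence and barrier tightness.

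On mm10, Tek lies on chromosome 4 at 94739289 to 94874976 on the plus strand, and Tie1 lies on the same chromosome at 118471191 to 118490061 on the minus strand. Ptprb lies on chromosome 10 at 116275523 to 116389535 on the plus strand, Angpt1 on chromosome 15 at 42424723 to 42676977 and Angpt2 on chromosome 8 at 18690263 to 18741562, both on the minus strand. Angpt1 shares 737 exonic bases with the antisense gene Gm17473 on the opposite strand, and reads of this pair could not be separated here because the strand setting of the counting is not given in the sources used here. Gm17473 had no count in 41 of 43 libraries. Angpt2 lies within Mcph1 on the opposite strand without sharing exonic bases.

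Of the 5 genes, Tek and Tie1 have an entry in the RefSeq promoter table (GRCm38.p6). The Tek window is shown because Tek was higher in the library titled high in each matched pair of male libraries. It holds the 250 bases before the annotated start, chr4:94739039-94739288 on the plus strand, and capitals mark matches to the ETS core GGAA on either strand.
Tek: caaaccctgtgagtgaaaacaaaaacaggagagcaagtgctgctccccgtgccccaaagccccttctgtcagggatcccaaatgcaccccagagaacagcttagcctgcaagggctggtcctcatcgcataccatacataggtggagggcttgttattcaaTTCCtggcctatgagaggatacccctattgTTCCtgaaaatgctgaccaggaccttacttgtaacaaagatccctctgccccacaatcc
The window held 2 matches to GGAA, both on the opposite strand, and the median over 32851 promoter windows of this length was 3, with 93.4% holding at least 1. It held no match to the forkhead letters GTAAACA, found in 3.17% of windows, or to the GATA letters AGATAA, found in 9.99%. The Tie1 window, chr4:118489850-118490099 on the minus strand, held 7 matches to GGAA and none to the other letters. That window overlaps the Tie1 gene as placed above, which reaches 118490061, so the 2 sources differ in its start. A match is a run of letters and not a binding site.

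Depth ran from 1626534 to 49372356 counts (median 5790701), and the 16 female libraries (2731954 to 49372356) reached higher totals than the 27 male ones (1626534 to 10567966). The share of counts in 3 ribosomal-RNA-like genes, Gm23935, Gm42418 and Gm26917, was 1.59% to 12.1% in female and 13.0% to 29.3% in male libraries, without overlap, so sex and this share cannot be told apart. The sort marker Pecam1 was at 446 to 1100 CPM and Cldn5 at 322 to 2503 CPM in every library. Markers of other brain cells were present too: Pdgfrb of pericytes was at 108 to 1028 CPM, Aqp4 of astrocytes at 2.04 to 245 CPM and Snap25 of neurons at 11.2 to 281 CPM, whereas the microglial P2ry12 was at or under 3 counts in 22 of 43 libraries. Counts came from polymerase chain reaction products without molecular identifiers, so a floor of 3 counts covers counting error only.

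Per kilobase of exon, the phosphatase and the receptors were far more abundant than the ligands. Ptprb had a median of 227 CPM per kb over the 43 libraries, Tek 172, Tie1 77.2, Angpt2 4.44 and Angpt1 0.00913. Tek stood above Tie1 on this per-length scale in 43 of 43 libraries, with a median Tie1 to Tek ratio of 0.477. Ptprb stood above Tek in 36 libraries and Angpt2 above Angpt1 in 39.

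Tek ran from 388 to 1151 CPM, with a mean of 788 ± 176 (SD, n = 43). CAST/EiJ libraries had a lowest level of 757, a median of 1036 and a highest of 1151 CPM, and WSB/EiJ 472, 611 and 702. The 2 wild-derived strains therefore sat at opposite ends of the Tek order. The 129S1/SvImJ libraries lay at 388, 817 and 996 CPM. NOD/ShiLtJ (605, 849 and 938 CPM at the lowest, median and highest library) and C57BL/6J (680, 810 and 913) lay between. The 129S1/SvImJ libraries were thus the most spread. Of these, the 6 female ones ran from 388 to 996 CPM and the 3 male ones from 740 to 969. The 5 A/J libraries read 561, 637, 844, 882 and 953 CPM. The 5 DBA/2J libraries read 656, 681, 709, 864 and 1025 CPM. Each strain overlapped its neighbour in that order. WSB/EiJ also had the lowest median total of the strains, 2.72e+06 counts against 5.79e+06 over all 43 libraries. The mean log2 level over the endothelial markers described with the title tag was lowest there too, at a median of 8.99 (8.55 to 9.22). That median was 9.56 in CAST/EiJ and was highest in A/J, at 9.70. The part of depth and cell content in the Tek order was not tested.

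Tie1 ran from 161 to 672 CPM (mean 382 ± 118, SD, n = 43) and had its extremes in the same strains. CAST/EiJ libraries lay at 327, 517 and 672 CPM (lowest, median and highest) and C57BL/6J at 371, 479 and 552. WSB/EiJ lay at 161, 279 and 355 CPM, 129S1/SvImJ at 186, 273 and 473 and NOD/ShiLtJ at 260, 327 and 439. WSB/EiJ held the lowest library and the lowest mean and 129S1/SvImJ the lowest median. In 129S1/SvImJ the 6 female libraries had a median of 249 CPM (186 to 472) and the 3 male ones 429 (350 to 473). Strain and sex were therefore not balanced in this order. WSB/EiJ libraries were all below the lowest C57BL/6J library, and the part of depth and cell content in this was not tested either. The A/J libraries read 244, 377, 411, 428 and 437 CPM. The DBA/2J libraries read 380, 382, 401, 427 and 470 CPM and were the least spread.

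Ptprb was the most even of the 5, from 1729 to 3710 CPM (mean 2963 ± 439, SD, n = 43). CAST/EiJ libraries stayed within 2803 to 3066 CPM (median 2956), WSB/EiJ within 2971 to 3507 (3295), C57BL/6J within 2820 to 3368 (3134) and NOD/ShiLtJ within 2811 to 3387 (2959). 129S1/SvImJ was the exception with 1729, 2265 and 3093 CPM at the lowest, median and highest library. Its low values were female libraries, described with the comparison of the sexes. The A/J libraries read 3011, 3278, 3417, 3432 and 3710 CPM. The DBA/2J libraries read 2180, 2903, 3016, 3161 and 3232 CPM.

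Angpt2 was low and variable, from 0 to 285 CPM with a median of 16.4, and was at or under 3 counts in 2 libraries. WSB/EiJ lay at 18.9, 32.5 and 285 CPM (lowest, median and highest) and CAST/EiJ at 11.5, 26.7 and 53.8. C57BL/6J lay at 4.89, 12.3 and 21.6 CPM, NOD/ShiLtJ at 1.45, 6.99 and 36.7, and 129S1/SvImJ at 0.0589, 9.45 and 24.96. Every WSB/EiJ library stood above the long-inbred median of 12.7 CPM. The A/J libraries read 12.7, 13.5, 24.96, 29.0 and 34.0 CPM. The DBA/2J libraries read 0, 5.08, 10.5, 16.4 and 37.7 CPM, where the library at 0 held 3565114 counts in all, a depth at which the floor of 3 counts is 0.841 CPM.

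Angpt1 was at the limit of detection, with no count in 20 of 43 libraries, at most 3 counts in 24, and a highest level of 15.2 CPM. C57BL/6J had no Angpt1 count in 5 of 6 libraries, WSB/EiJ in 4 of 6, 129S1/SvImJ in 5 of 9, CAST/EiJ and DBA/2J in 2 libraries each, and A/J and NOD/ShiLtJ in 1 library each. Of the 8 deepest libraries 3 had no Angpt1 count and 4 had at most 3, while 1 had 533. Angpt1 therefore gives no usable order of strains here.

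**Figure D1:**
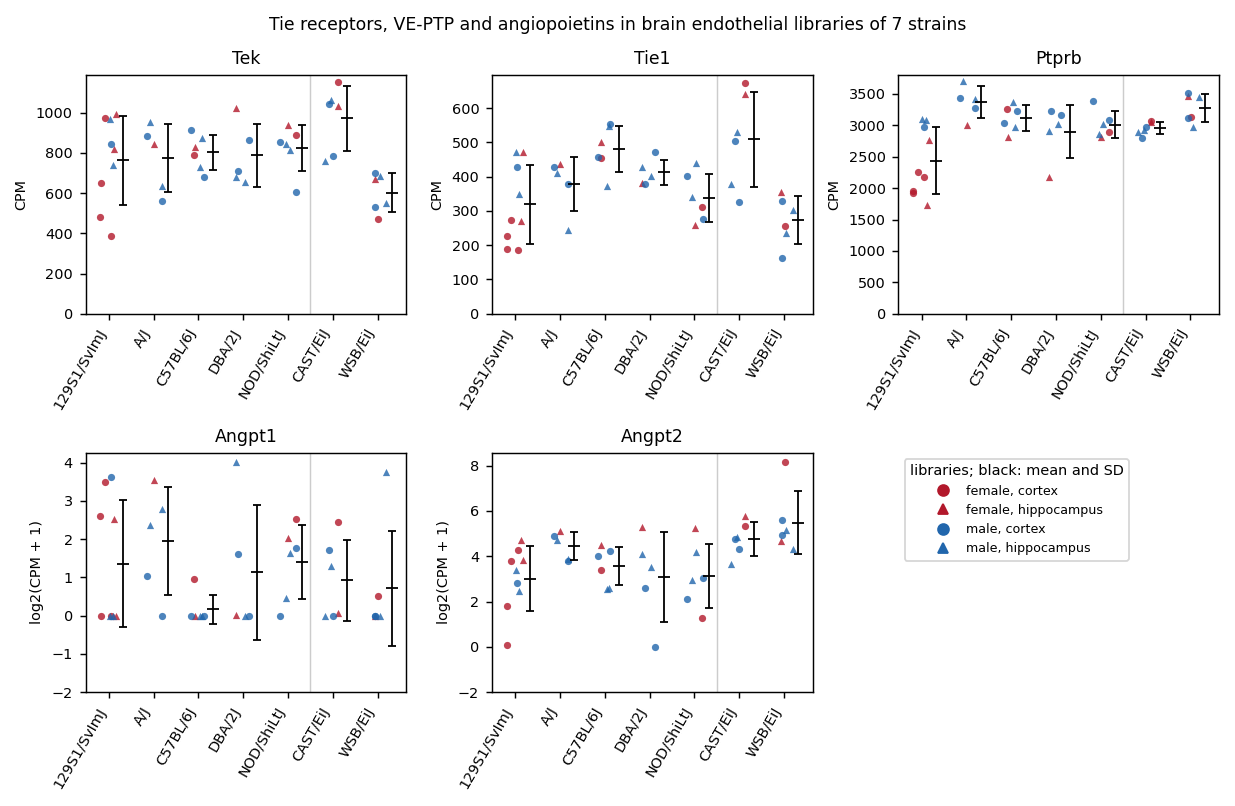
Each point is 1 library, coloured by sex and shaped by region, with CPM on the y axis for Tek, Tie1 and Ptprb and log2(CPM + 1) for Angpt1 and Angpt2, and black marks give the strain mean and SD. The wild-derived strains stand right of the grey line: the mean of CAST/EiJ is at the top for Tek and Tie1, that of WSB/EiJ at the bottom, and 1 WSB/EiJ library reaches 285 CPM for Angpt2.

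To place the strains in order, neighbours in the order of mean log2(CPM + 1) were compared by two-sided exact permutation tests, 30 in all. None passed, with an adjusted p of at least 0.877 in each exact permutation test, and in all 30 pairs the libraries overlapped. Neighbours were chosen by the same means and so differ least, and these tests do not address strains further apart. The smallest unadjusted exact permutation p was 0.0801, for Angpt2 in A/J (5 libraries) against C57BL/6J (6 libraries).

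Across the 7 strains together, edgeR's quasi-likelihood F-test called 2 of the 5 genes at an adjusted p under 0.05, where 2.68% of all genes tested were called. They were Angpt2 (adjusted p = 0.0131, fitted span between strains 2.84 on the log2 scale) and Tie1 (adjusted p = 0.0416, span 0.90). Tek (span 0.69, adjusted p = 0.431), Ptprb (span 0.47, adjusted p = 0.138) and Angpt1 (adjusted p = 0.83) did not pass. Unadjusted permutation tests of log2(CPM + 1) among strains gave p = 0.00066 for Ptprb, 0.0011 for Tie1, 0.00534 for Angpt2, 0.0315 for Tek and 0.417 for Angpt1, so Ptprb had the smallest p there without being called by edgeR. Both calls depended on the libraries used. Without WSB/EiJ replicate 2, adjusted p was 0.696 for Angpt2. The Tie1 call was lost, at adjusted p of 0.0510 to 0.121, on leaving out any 1 of 17 libraries: CAST/EiJ replicate 1, 2, 5 or 6, WSB/EiJ replicate 2, 5 or 6, C57BL/6J replicate 4, 5 or 6, 129S1/SvImJ replicate 1, 2 or 3, NOD/ShiLtJ replicate 1, 4 or 5, or DBA/2J replicate 4. Among male libraries alone adjusted p was 0.851 for Angpt2 and 0.343 for Tie1.

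Against C57BL/6J, the strain of the reference genome, none of the 5 genes passed in any of the 6 contrasts by edgeR. The closest were Tie1 in WSB/EiJ, at a log2 fold change of -0.82 (SE 0.23, adjusted p = 0.0679), and Angpt2 in WSB/EiJ, at 2.57 (SE 0.75, adjusted p = 0.0913). The share of all genes called was 0.793% for WSB/EiJ, 0.728% for CAST/EiJ, 0.306% for 129S1/SvImJ, 0.227% for A/J, 0.213% for NOD/ShiLtJ and 0.175% for DBA/2J. At an unadjusted p under 0.05 the 6 contrasts held these 2 values, Tek in WSB/EiJ (-0.42, SE 0.19), Tie1 in NOD/ShiLtJ (-0.51, SE 0.23) and 129S1/SvImJ (-0.59, SE 0.20), Ptprb in 129S1/SvImJ (-0.35, SE 0.12) and Angpt1 in A/J. In 129S1/SvImJ 6 of 9 libraries were female and in C57BL/6J 2 of 6, and the fit held no term for sex. Of the 44 further pathway genes described next to origin, Plat passed in CAST/EiJ (1.33, adjusted p = 0.00571) and Foxo3 in WSB/EiJ (1.06, adjusted p = 0.0489).

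The study compared recently wild-derived with long-inbred strains, and Angpt2 was higher in the wild-derived libraries. Its mean was 51.5 ± 74.6 CPM in the 12 wild-derived libraries (lowest 11.5, median 28.7, highest 285) and 13.6 ± 10.6 CPM in the 31 long-inbred ones (lowest 0, median 12.7, highest 37.7; SD). Of the wild-derived libraries 11 of 12 lay above the long-inbred median and 4 above the long-inbred maximum, so the groups overlapped. The long-inbred A/J, at 12.7 to 34.0 CPM (median 24.96), lay within the range of CAST/EiJ, 11.5 to 53.8 CPM (median 26.7). The log2 fold change was 1.91 (SE 0.40, adjusted p = 0.00339, edgeR), in a comparison that called 0.749% of all genes. A two-sided permutation test of log2(CPM + 1), unadjusted, gave a difference of 1.74 and p = 0.00023. It shuffled single libraries although origin is fixed by strain, so its p takes no account of the spread between strains.

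This call rested on 1 library. WSB/EiJ replicate 2, a female cortex library titled high, held 660 Angpt2 counts of 2731954, and without it the wild-derived mean was 30.3 ± 12.8 CPM (SD, n = 11) and the log2 fold change 1.13 (SE 0.41, unadjusted p = 0.00771, adjusted p = 0.364). The permutation difference without it, again shuffling single libraries, was 1.46 (permutation p = 0.00181, unadjusted). Mcph1, which surrounds Angpt2, had no count in that library. Its mean log2(CPM + 1) over 6 neuronal markers was 7.002 and over 10 microglial markers 2.29, each the highest of the wild-derived libraries. Over 10 pericyte markers it was 7.74, within the wild-derived range of 6.16 to 8.03, and the part of these cells in the Angpt2 level was not tested.

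Angpt2 was higher in wild-derived libraries in each subset tried, by differing amounts. The log2 fold change was 2.97 in cortex (adjusted p = 0.0166) and 0.69 in hippocampus (adjusted p = 0.817), 1.27 in male libraries (adjusted p = 0.576), 2.43 without CAST/EiJ (adjusted p = 0.00341) and 1.09 without WSB/EiJ (adjusted p = 0.818). The cortex set and the set without CAST/EiJ, which passed, both held WSB/EiJ replicate 2, at 285 CPM. The hippocampus and male sets and the set without WSB/EiJ, which did not pass, lacked it. Counts summed per strain, which treat each strain as 1 sample, gave 1.32 (adjusted p = 0.73). In cortex the long-inbred median was 7.25 CPM (0 to 29.0, n = 15) and the wild-derived median 34.8 (18.9 to 285, n = 6), whereas in hippocampus they were 14.9 (4.55 to 37.7, n = 16) and 26.2 (11.5 to 53.8, n = 6). The difference between regions was itself 2.29 on the log2 scale (SE 0.84, unadjusted p = 0.00802) and did not pass (adjusted p = 0.9999, edgeR interaction term). That fit too included the cortex library at 285 CPM.

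**Figure D2:**
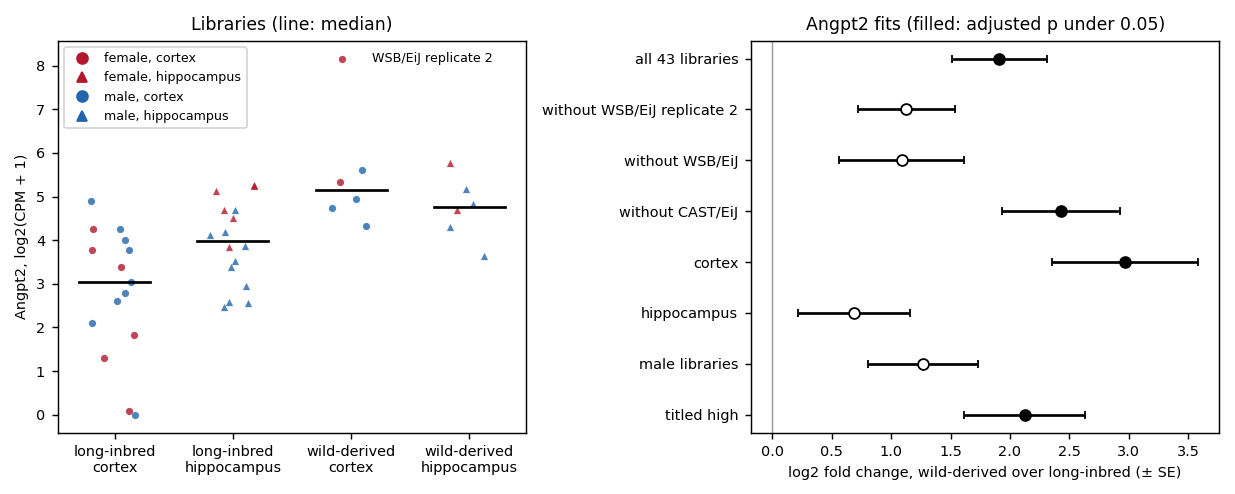
The left panel plots log2(CPM + 1) of Angpt2 in each library by origin and region, coloured by sex, with the median as a line, and the right panel plots the log2 fold change of wild-derived over long-inbred strains with its SE in each set of libraries, filled where the adjusted p was under 0.05. The fold change falls from 1.91 to 1.13 when the library at 285 CPM is left out.

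The receptors, the phosphatase and Angpt1 did not pass the test by origin. Tek was 787 ± 231 CPM in wild-derived and 788 ± 154 in long-inbred libraries (log2 fold change -0.0023, SE 0.12, adjusted p = 0.995). Tie1 was 391 ± 161 against 379 ± 99.2 CPM (0.046, SE 0.15, adjusted p = 0.924) and Ptprb 3114 ± 237 against 2905 ± 486 (0.10, SE 0.088, adjusted p = 0.754). Angpt1 was 1.77 ± 3.67 against 2.72 ± 4.08 CPM (-0.64, SE 1.26, adjusted p = 0.854; all SD, n = 12 and 31). These values average over CAST/EiJ and WSB/EiJ, whose mean Tek and Tie1 levels lay at opposite ends of the strain order. All genes tested had a median of -0.38 on the same scale. That median took in genes that reached 0.5 CPM in only 1 library and was 0 with DESeq2, so it is no baseline for the 5 genes.

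By origin, in a comparison that called 0.749% of all genes, 2 of 44 further genes of the pathway in 7 groups passed. Both rose and came from the list of 5 Weibel-Palade body genes. Vwf, the coagulation factor that forms these storage bodies, was 1406 ± 273 CPM in wild-derived and 674 ± 360 CPM in long-inbred libraries (log2 fold change 1.06, SE 0.19, adjusted p = 0.000221). Plat, tissue plasminogen activator, was 221 ± 114 against 105 ± 33.0 CPM (1.07, SE 0.18, adjusted p = 9e-05). Plat was 314 ± 71.2 CPM in CAST/EiJ and 129 ± 56.0 in WSB/EiJ, and Vwf was 1361 ± 168 and 1450 ± 362 (SD, n = 6 each). None of the 12 receptor-proximal adaptors and kinases, 12 downstream effectors, 4 junction partners of VE-PTP, 4 integrins, 5 inducers of Angpt2 or 2 further ligands passed. The list was written with earlier results of these data known and is no independent evidence of direction.

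In the comparison across the 7 strains, which called 2.68% of all genes, 6 of the 44 passed. Besides Vwf and Plat these were Kdr, the VEGF receptor (adjusted p = 0.00154), Pik3r2, a regulatory subunit of PI3 kinase (adjusted p = 0.0254), Foxo3, a transcription factor that AKT keeps out of the nucleus (adjusted p = 0.0405), and Ctnnb1, beta-catenin (adjusted p = 0.0453). Kdr was lowest in 129S1/SvImJ at 716 ± 223 CPM (SD, n = 9) and highest in NOD/ShiLtJ at 1401 ± 259 (SD, n = 6). Foxo3 was highest in WSB/EiJ at 165 ± 63.3 CPM and Pik3r2 likewise at 86.7 ± 63.3, while Ctnnb1 was lowest there at 853 ± 195 (SD, n = 6).

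By edgeR none of the 5 genes passed between cortex and hippocampus, at an adjusted p under 0.05 or an unadjusted one, nor by DESeq2, in a comparison that called 0.0755% of all genes. Tek was 751 ± 200 CPM in cortex and 823 ± 145 in hippocampus (log2 fold change -0.13, SE 0.11, adjusted p = 0.672). Tie1 was 365 ± 131 against 398 ± 104 CPM (-0.13, SE 0.14, adjusted p = 0.779), Ptprb 2947 ± 468 against 2979 ± 420 (-0.015, SE 0.081, adjusted p = 0.979) and Angpt1 2.15 ± 3.33 against 2.75 ± 4.52 (-0.34, SE 1.08, adjusted p = 0.961). Angpt2 was 28.0 ± 60.4 CPM in 21 cortex and 20.6 ± 13.0 in 22 hippocampus libraries (SD), a log2 fold change of 0.43 (SE 0.43, adjusted p = 0.743) that turned to -0.66 without WSB/EiJ. In 17 pairs of libraries of the same strain, sex and tag, Tek was higher in cortex in 7, Tie1 in 8, Ptprb in 11 and Angpt2 in 7. None of the 44 pathway genes passed between regions by edgeR, and 3 had an unadjusted p under 0.05.

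The title tag could be compared within male libraries, 14 titled high and 13 titled low from the same strains and regions. Tek was higher in the high libraries, at 869 ± 119 CPM (lowest 681, median 869, highest 1064) against 673 ± 92.1 CPM (529, 680 and 812; SD). The groups overlapped, with 11 of 14 high libraries above the highest low one. The log2 fold change was 0.38 (SE 0.10) and fell just short of the threshold, with an adjusted p of 0.0504 by edgeR, where 1.06% of all genes were called. A two-sided permutation test gave p = 0.00014, unadjusted.

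Where strain and region were held fixed there were 13 pairs, and Tek was higher in the high library in 13 of 13. The smallest difference was 0.054 on the log2(CPM + 1) scale (DBA/2J hippocampus, 681 against 656 CPM), the median 0.41 and the largest 0.65 (A/J cortex, 882 against 561 CPM). With strain and region as covariates the log2 fold change was 0.37 and adjusted p = 0.00452 (edgeR), and Tek was also called with DESeq2, its size factors, a stricter filter and edgeR's older fit (which called 30.2% of all genes), but not within 1 region or with any 1 strain left out. Tie1 was higher in 9 of 13 pairs (0.20, SE 0.14, adjusted p = 0.651), Angpt2 in 9 (0.44, SE 0.47, adjusted p = 0.676) and Ptprb in 5 (-0.035, SE 0.073, adjusted p = 0.874). Angpt1 was higher in 4 pairs and lower in 5 (adjusted p = 0.93).

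Some markers of EC and of other cells moved with the tag, in a comparison that called 1.06% of all genes, 81 higher and 212 lower. Of 20 endothelial markers, 7 rose and 1 fell in high libraries, led by Cldn5, the tight-junction claudin of the barrier (log2 fold change 0.96, SE 0.15, adjusted p = 7.8e-05, higher in 13 of 13 pairs), while Pecam1, the sort marker, did not pass (0.12, SE 0.10, adjusted p = 0.651, higher in 9 of 13 pairs). Of 10 astrocyte markers 4 fell, of 6 neuronal markers 3, of 6 oligodendrocyte markers 1 and of 10 pericyte markers 1. The mean log2(CPM + 1) over the endothelial list was 8.55 to 9.84 in high and 8.87 to 9.48 in low libraries. The mean log2(CPM + 1) over the astrocyte list was 5.57 to 7.28 in high and 6.74 to 8.38 in low libraries, and over the neuronal list 4.10 to 6.55 in high and 5.54 to 6.95 in low libraries. Over the 43 libraries Tek had a Spearman correlation of 0.799 with the endothelial list, which does not contain it, and -0.708 with the neuronal list, both described without a test because libraries share strain, sex and tag. The part of these cells in the Tek difference was not tested.

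**Figure D3:**
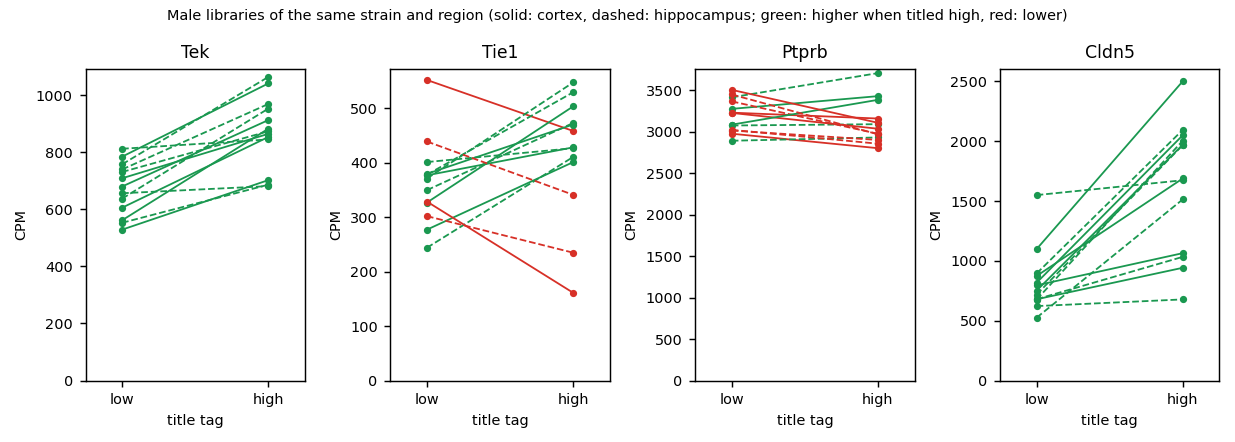
Each line joins the male library titled low and the one titled high of the same strain and region, with CPM on the y axis (solid for cortex, dashed for hippocampus, green where high is above low and red where below), for Tek, Tie1, Ptprb and, for comparison, Cldn5. All 13 lines rise for Tek and for Cldn5, 9 rise for Tie1 and 5 for Ptprb.

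Pathway genes passed between tags in both directions, where 1.06% of all genes were called, 81 higher and 212 lower. Klf2, the flow-responsive factor of quiescent endothelium, was 427 ± 153 CPM in high and 209 ± 79.7 in low libraries (log2 fold change 1.04, SE 0.19, adjusted p = 0.000752). Foxo1, the transcription factor that AKT restrains and that drives Angpt2 transcription, was 165 ± 27.8 against 102 ± 19.4 CPM (0.71, SE 0.15, adjusted p = 0.00482). Among those that fell were Ptpn11, the phosphatase SHP2 (-0.65, adjusted p = 0.00508), Ctnnb1 (-0.46, adjusted p = 0.0141) and Pik3r1, a PI3 kinase subunit (-0.70, adjusted p = 0.0188). The part of cell content in these rises and falls was not tested.

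By edgeR none of the 5 genes passed between female and male libraries, 2 had an unadjusted p under 0.05 and DESeq2 called 1, in a comparison that called 2.85% of all genes. Ptprb came closest, at 2657 ± 537 CPM in 16 female (lowest 1729, median 2816, highest 3466) and 3144 ± 230 CPM in 27 male libraries (2803, 3087 and 3710; SD). The log2 fold change was -0.24 (SE 0.075, adjusted p = 0.0597, edgeR), and an unadjusted permutation test gave p = 0.0001. The lowest values came from 2 strains. The 6 female 129S1/SvImJ libraries had a mean of 2136 ± 364 CPM against 3045 ± 69.4 in the 3 male ones. The single DBA/2J female stood at 2180 against 2903 to 3232 CPM in 4 males. The single A/J female, at 3011 CPM, also lay below its 4 males (3278 to 3710 CPM). Female means were lower too in NOD/ShiLtJ (2852 against 3089 CPM) and C57BL/6J (3040 against 3153). In CAST/EiJ the 2 females (3048 and 3066 CPM) lay above the 4 males (2803 to 2978 CPM). The female mean was also higher in WSB/EiJ (3302 against 3260 CPM). Without 129S1/SvImJ the log2 fold change was -0.088 (adjusted p = 0.643), and with the size factors of DESeq2 it was -0.38 (adjusted p = 0.000211).

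**Figure D4:**
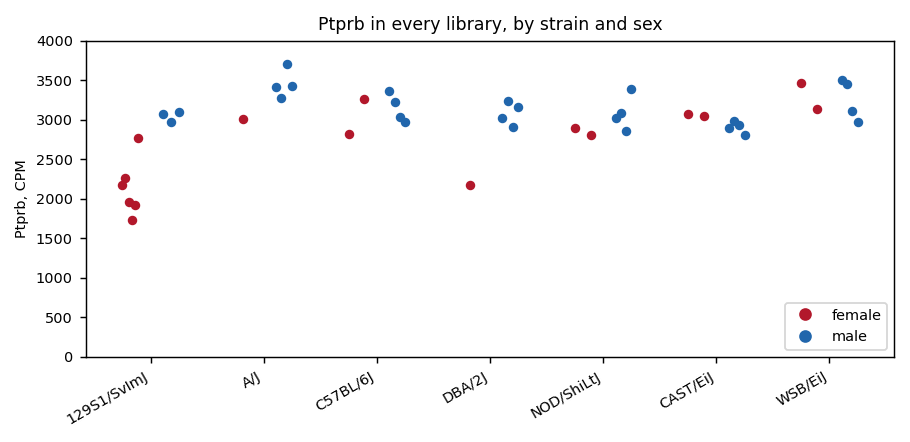
Each point is the Ptprb level in 1 library in CPM, by strain and sex. The female 129S1/SvImJ libraries, at 1729 to 2771 CPM, and the female DBA/2J library, at 2180 CPM, lie below the male libraries of their strains.

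Angpt2 was 38.5 ± 67.6 CPM in female and 15.7 ± 11.3 CPM in male libraries (log2 fold change 1.29, SE 0.41, adjusted p = 0.0754), and the highest value was again WSB/EiJ replicate 2. On log2(CPM + 1) the difference was 0.52 (permutation p = 0.28, unadjusted). Tek (0.062, SE 0.11, adjusted p = 0.802), Tie1 (-0.086, SE 0.14, adjusted p = 0.782) and Angpt1 (0.31, SE 1.11, adjusted p = 0.914) did not pass. The origin effect differed between the sexes by 0.79 for Tie1 (SE 0.30, unadjusted p = 0.0108) and 0.40 for Ptprb (SE 0.16, unadjusted p = 0.0141), and neither passed (adjusted p = 0.9999, edgeR interaction term). Of the pathway genes Tnip2, an inhibitor of NF-kappaB signalling that binds Tie2 (1.65, SE 0.33, adjusted p = 0.000382), Rasa1, a Ras GTPase-activating protein (0.60, SE 0.15, adjusted p = 0.011), and Grb14, a receptor adaptor (0.53, SE 0.15, adjusted p = 0.0264), rose in female libraries and Ctnnb1 fell (-0.53, SE 0.13, adjusted p = 0.00884).

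**Figure D5:**
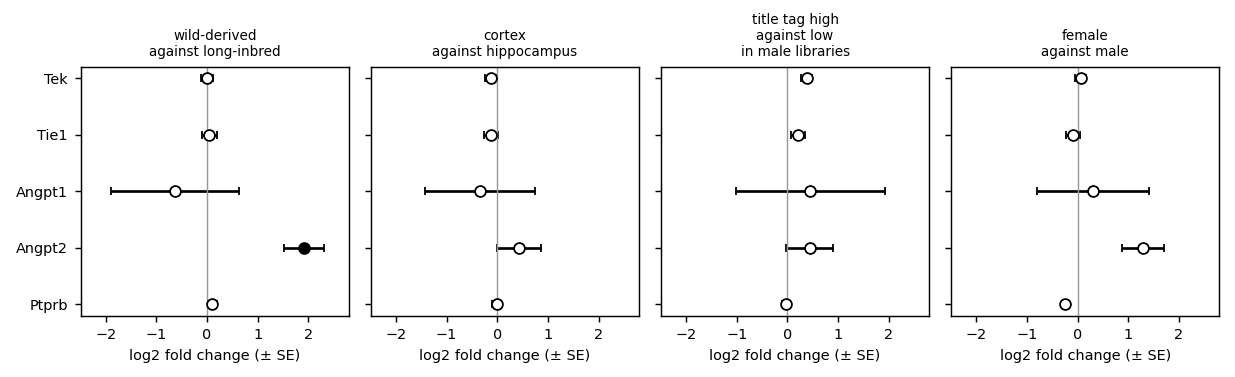
Each point is the log2 fold change of 1 gene in 1 comparison with its SE, filled where the adjusted p was under 0.05. Angpt2 by origin, at 1.91, is the filled point, and the bars of Angpt1 are the widest.

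The genes whose levels followed each member most closely over the 43 libraries were found by Spearman correlation of log2(CPM + 1) among 10648 genes with a mean of at least 5 CPM (10649 for Angpt1, which lies under that mean). For Tek they were Thbd, the endothelial anticoagulant thrombomodulin (0.811, and 0.753 within the 27 male libraries), Rpn2 (0.795 and 0.684) and Tnfsf10 (0.794 and 0.793). For Tie1 they were Cldn5 (0.690 and 0.746), Nfatc1 (0.680 and 0.636) and Srarp (0.671 and 0.660). For Ptprb they were Bmpr2, a receptor of bone morphogenetic proteins (0.703 and 0.544), Taf4 (0.619 and 0.532) and Zfand3 (0.606 and 0.284). For Angpt2 they were Bhlhe40 (0.684 and 0.490), Mtmr2 (0.617 and 0.676) and Terf1 (0.609 and 0.473), and for Angpt1, from sparse counts, Emp1 (0.673 and 0.735), Cdh13 (0.562 and 0.612) and Lysmd3 (0.560 and 0.634). Tek and Tie1 correlated with each other at 0.616 (0.645 within male libraries), Tek and Ptprb at -0.228 (-0.308) and Angpt1 and Angpt2 at 0.124 (0.153).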

How the data were processed

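The 43 libraries were made with a SMARTer stranded total RNA pico-input kit after rRNA depletion. Per the labels, reads were aligned with HISAT2 2.1.0 to mm10, the C57BL/6J reference, for every strain and counted per gene with featureCounts (Subread 1.4.4), and the authors deposited raw counts. From these counts CPM were computed with TMM factors, per kilobase of merged GENCODE M21 exons (54495 of 54532 genes matched). The test was edgeR 4.0.16 (R 4.3.3) quasi-likelihood with Benjamini-Hochberg adjustment at 0.05 over genes that reached 0.5 CPM in 1 library or more, without covariates. Fits with covariates left out genes whose fitted counts exceeded 5 times their highest count. Permutation tests used 100000 resamples, 25 in all. Alternatives included DESeq2 1.42.0. Pathway genes were named where called, at most 4 a group, and 3 most alike genes for each member. Each library pair within a strain differed beyond sampling noise (lowest chi-square per degree of freedom 20.7 over 116 pairs). On simulated counts, falsely called genes exceeded the nominal share in the strain, region, tag and sex comparisons, so adjusted p near the threshold there may be too small. The members and lists were chosen with earlier results of these data known. 1 pathway gene's result between tags is not reported here. PWK/PhJ was not analysed here.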

Additional observations from a re-analysis of the deposited data

Results flagged for a closer look

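In 35 groups of 4 to 10 libraries, 6 had a highest or lowest library whose gap to the next exceeded Dixon's 95% critical value, where chance gives about 1 in 20. Angpt2 stood at 285 CPM in WSB/EiJ replicate 2, the library on which the Angpt2 call by origin rested. Ptprb was lowest in DBA/2J replicate 1, the only female of that strain, at 2180 CPM. Tek was lowest in NOD/ShiLtJ replicate 4 at 605 CPM, and Tie1 in A/J replicate 2 at 244 CPM, both male libraries titled low. Angpt1 was highest in WSB/EiJ replicate 4 at 12.6 CPM and in C57BL/6J replicate 2 at 0.942 CPM, strains in which nearly all other libraries had no count. In C57BL/6J, with no count in 5 of 6 libraries, any count in the remaining library would have been flagged.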

How the results depend on the processing

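Of 392 values of single members under other settings, apart from leaving out 1 library, 330 kept direction and side of the threshold, 32 reversed, 19 newly passed and 11 were lost, and the causes were not tested. By origin 0 members were called in hippocampus, in male libraries, without WSB/EiJ and with counts summed per strain. Leaving out 1 library at a time, chosen after seeing the data like the permutation tests, left 0 to 1 members called by origin and 0 to 2 among strains. Among strains 4 members were called with edgeR's older quasi-likelihood fit, which called 46.4% of all genes there, 36.0% by sex and 30.2% by tag, so that member calls under it say little, 1 with counts drawn down to the smallest total, in libraries titled high or in cortex, and 0 in hippocampus or male libraries. Between tags 1 member, Tek, was called with DESeq2, DESeq2 size factors, filterByExpr, the older fit or covariates. Between sexes 2 (Ptprb and Angpt2) were called with the older fit, and 1 with DESeq2, its size factors, no filter, filterByExpr, drawn-down counts, or without C57BL/6J, CAST/EiJ, NOD/ShiLtJ or WSB/EiJ (Ptprb) or without 129S1/SvImJ (Angpt2).

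Reversed log2 fold changes, none called, were by origin 0.0032 (covariates), 0.061 (cortex), 1.2e-05 (without NOD/ShiLtJ) and 0.28 (without WSB/EiJ) for Tek. For Tie1 they were -0.018 (DESeq2 size factors), -0.017 (DESeq2), -0.27 (males), -0.044 (without 129S1/SvImJ), -0.47 (without CAST/EiJ) and -0.0029 (without NOD/ShiLtJ), and for Ptprb -0.059 (males) and -8.1e-05 (without WSB/EiJ). Between regions they were 0.011 for Tie1 and 0.022 for Ptprb (males), 0.053 for Ptprb (without 129S1/SvImJ), -0.27 (covariates) and -0.66 (without WSB/EiJ) for Angpt2, and 0.21 (covariates), 0.083 (drawn-down counts), 0.12 (titled high) and 0.16 (without A/J) for Angpt1. Between tags Angpt1 was at -0.24 without DBA/2J. Between sexes Tek was at -0.060 (DESeq2 size factors), -0.060 (DESeq2), -0.12 (covariates), -0.059 (drawn-down counts), -0.078 (titled high), -0.083 (cortex) and -0.015 (without DBA/2J), Tie1 at 0.089 (hippocampus) and 0.14 (without 129S1/SvImJ), and Angpt1 at -0.35 (hippocampus).

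Counts over all genes also moved. The older fit called 6712 by origin, 13525 among strains, 8023 by region, 8327 by tag and 10473 by sex, and DESeq2 called 395, 1336, 61 and 635 in the first 4. By origin 136 genes were called in libraries titled high, 40 in cortex, 68 in hippocampus, 123 in males and 7 with counts summed per strain. Among strains 186 were called in cortex, 184 in hippocampus and 474 in males. By region 46 were called with covariates, 70 with drawn-down counts and 11 without NOD/ShiLtJ. By tag 560 were called with covariates, 27 in cortex, 5 in hippocampus and 124 to 195 without C57BL/6J, 129S1/SvImJ, A/J, CAST/EiJ or NOD/ShiLtJ. By sex 539 were called with covariates, 491 with drawn-down counts, 448 in libraries titled high, 241 in cortex, 304 in hippocampus, 532 without 129S1/SvImJ and 515 without DBA/2J. With DESeq2 size factors the split by sex was 430 higher and 155 lower, against 745 and 85. Low counts limit Angpt1 most, at or under 3 counts in 24 of 43 libraries and in 4 of the 8 deepest. No paired analysis was possible because few titles carry a replicate number and the groups compared share fewer than 2 of them, so pairs matched by strain and region stand in the report instead.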
